A study of Homo sapiens with 12 samples.

Results

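Collagens and laminins are the structural proteins of the extracellular matrix, and 48 of their genes were measured here in whole-cell and cytoplasmic RNA of human embryonic kidney cells. Members were all protein-coding genes whose symbol has the form of a collagen chain (COL, number, A, number) or a laminin chain (LAMA, LAMB or LAMC and a number), with a mean of at least 10 counts over the 12 libraries. Of 56 such genes, 48 passed this minimum, namely 37 of 44 collagens and 11 of 12 laminins, among 26686 genes tested for the difference between fractions. The 8 genes below it were COL1A2, COL6A5, COL8A2, COL9A1, COL10A1, COL11A1, COL22A1 and LAMB4, and none of them exceeded 17 counts in any library. Within this rule a gene entered by its name and the minimum alone, but the rule itself was chosen with earlier results of these data known. Because that minimum is a mean over all libraries, a gene could pass it on whole-cell RNA alone. COL6A3 and COL6A6 did so, with at most 9 and 7 counts in a cytoplasmic library, and COL3A1 (4 to 12) and COL8A1 (5 to 21) had few there. All of these are among the members counted as lower in the cytoplasm, which such a minimum favours. The 35 members with a mean of at least 100 counts, given below as well, leave them out.

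The libraries came from a pair of Flp-In T-REx 293 lines, each grown from 1 selected colony. In both lines doxycycline induced chained miRNAs against endogenous PGC-1α together with a FLAG-tagged, miRNA-resistant PGC-1α, which was full length in WT-res and lacked the RS domain in ΔRS-res. Every culture received doxycycline at 1 µg/ml for 6 days, so no uninduced sample enters these comparisons. The cytoplasmic RNA came from cells lysed in a hypotonic buffer for which no detergent is listed. The supernatant was kept after each of a series of spins of rising speed, and what pelleted was left out. In this report cytoplasm means that cleared supernatant. Each line gave 3 whole-cell and 3 cytoplasmic libraries from consecutive passages. P-values therefore measure the spread between passages of 1 clone per line, and a difference between lines cannot be told apart from a difference between clones.

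Most collagens and all laminins begin with a signal peptide, a short hydrophobic stretch that directs the ribosome to the membrane of the endoplasmic reticulum (ER) as soon as it is made. A few collagens instead keep a membrane-spanning segment and reach the same membrane through it. Their mRNAs are thus translated on the rough ER, where the chains are hydroxylated, folded into a triple helix (collagens) or assembled as an αβγ heterotrimer (laminins), and exported. Type IV collagen and laminin form the 2 networks of the basement membrane that kidney epithelium rests on, whereas types I, II, III and V form fibrils. PGC-1α is a transcriptional co-activator, and the study asked whether its RS domain also serves the nuclear export of mRNA, which is why the lines were compared in both fractions.

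The start of the coding sequence and the collagen repeat are shown for members that the results turn on. The first 60 coding bases of the Ensembl canonical transcript (GENCODE 44, GRCh38) are given for 3 members whose level was far lower in the cytoplasm, for COL5A1 and COL5A2, which were not called, and for the transmembrane collagen COL25A1. Capitals mark in-frame CTG, 1 of the leucine codons.
LAMC1: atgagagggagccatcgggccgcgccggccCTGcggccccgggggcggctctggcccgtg
LAMB2: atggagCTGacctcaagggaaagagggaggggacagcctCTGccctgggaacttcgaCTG
COL4A1: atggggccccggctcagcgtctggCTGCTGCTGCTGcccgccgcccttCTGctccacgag
COL5A1: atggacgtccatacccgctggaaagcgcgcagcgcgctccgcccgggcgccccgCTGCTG
COL5A2: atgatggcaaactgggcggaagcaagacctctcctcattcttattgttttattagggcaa
COL25A1: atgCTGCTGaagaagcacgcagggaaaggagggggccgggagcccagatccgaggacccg
They lie at chr1:183023717-183023776 (plus strand), chr3:49132808-49132867 (minus), chr13:110306968-110307027 (minus), chr9:134642188-134642247 (plus), chr2:189179545-189179604 (minus) and chr4:109301960-109302019 (minus), each within 1 coding exon. Over the first 20 codons, 18 of 48 members held at least 3 in-frame CTG codons (37.5%), compared with 12.3% of 14618 protein-coding genes.

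The triple helix is built of triplets of residues that each begin with glycine, so that 1 codon in 3 starts with GG (the motif GGNNNNNNN, read in frame on the coding strand only). All 37 collagens held an unbroken run of at least 10 such repeats (from 23 to 343, median 56), while the longest in the laminins had 2 to 4, and 0.431% of the 14618 genes held 10 or more. The first 54 bases of the longest run are shown for a fibrillar collagen far lower in the cytoplasm and one that was not, with GG in capitals.
COL2A1: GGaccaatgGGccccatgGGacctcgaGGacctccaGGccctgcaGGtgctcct
COL1A1: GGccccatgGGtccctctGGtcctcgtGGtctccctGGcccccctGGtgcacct
They come from chr12:47995875-47996556 and chr17:50198161-50198441, both on the minus strand, and each spans 2 coding exons. The 2 runs are 339 and 338 repeats long, so that these members, whose fraction ratios differed widely, share this feature.

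Before the results, 1 library has to be set apart. DDX19B, singled out after its values were seen, had 21 counts in whole-cell replicate 3 of WT-res as labelled, compared with 1140 and 1574 in the other WT-res whole-cell libraries and 27 to 28 in ΔRS-res. It was kept under its label, and the main counts that it enters are given with and without it. Library totals ran from 90333190 to 144628005 counts. Mitochondrially encoded transcripts made up 1.92% to 2.65% of whole-cell and 0.0919% to 0.328% of cytoplasmic counts. All 8 markers of the fixed list for HEK293 (human embryonic kidney 293) cells were measured. They summed to 1083 to 1291 CPM (counts scaled to library size) in whole-cell and 1352 to 1515 in cytoplasmic libraries. Most of this sum was VIM (73207 to 143441 counts per library), whereas PAX2 had 286 to 789 counts and LHX1 186 to 510. Of 8 fibroblast markers, DCN, THY1 and FAP stayed under 10 counts in every library, and the list summed to 14.5 to 30.4 CPM in whole-cell and 2.06 to 5.35 CPM in cytoplasmic libraries, mostly FBLN1. Endothelial markers summed to at most 0.668 CPM (CDH5, TEK and CLDN5 under 10 counts) and blood markers to at most 0.343 CPM (PTPRC and CD3E under 10 counts).

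By level per length in whole-cell RNA, laminin chains, the common type IV chains and type II collagen led the members. LAMB1 (laminin β1) had 40 CPM per kilobase of transcript, LAMC1 (laminin γ1) 38.5, COL4A1 21.9, COL4A2 20.7 and COL2A1, the fibrillar collagen of cartilage, 20.2. COL14A1, a fibril-associated collagen, followed with 11.8, then LAMA4 (laminin α4) with 11.2, COL6A1 with 8.63, LAMA5 with 5.48 and LAMB2 with 5.23. At the other end, 10 members lay below 0.1 CPM per kilobase, with COL6A3 lowest at 0.0236. COL1A1 stood at 0.759 CPM per kilobase, while COL1A2, its partner in type I procollagen, had 0 to 3 counts per library.

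All members together took 0.122% to 0.166% of a whole-cell library and 0.0183% to 0.0242% of a cytoplasmic library, so the 2 ranges did not overlap. Between fractions, 39 of 48 members were lower in cytoplasmic than in whole-cell RNA (81.2%), compared with 31.3% of all 26686 genes tested. None was called higher at an adjusted p under 0.05 by edgeR's quasi-likelihood test (23.7% of all genes were). At an unadjusted p under 0.05 by that test 1 was higher, as were 6977 of 26686 genes, and DESeq2's Wald test called 1 higher. The median log2 fold change of the members was -1.89, against 0.14 for the 16145 protein-coding genes and -0.06 for all genes. These are ratios of shares of a library and do not give the amount of an mRNA per cell in either fraction, and in bulk RNA fewer cells with an mRNA and less of it per cell cannot be told apart. Other scalings moved the median of all genes to between -0.18 and 0.02 and that of protein-coding genes to between 0.02 and 0.21, and 39 to 42 members were called lower under each of 22 alternatives. Without WT-res whole-cell replicate 3 as labelled, 41 were lower and 0 higher (median -1.89), and the fits of single members moved by -0.18 to 0.45. With a block for the cell pellet, which the whole-cell and cytoplasmic library of a line and number share, 41 members were lower and 2 were higher (COL1A1 and LAMA2). Both had their highest ratio in the pair with WT-res whole-cell replicate 3 as labelled. There COL1A1 had 0.87 (-0.1 to 0.34 in the other pairs) and LAMA2 1.7 (0.08 to 1.19). The pellet block was not fitted without that library.

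Each line on its own gave similar counts. In WT-res 35 members were lower (24.8% of all genes were) with a median of -1.69 (35 and -1.71 without whole-cell replicate 3), and in ΔRS-res 39 were lower (24.3% of all genes) with a median of -2.00. None was called higher in either line, where 16.9% and 16.6% of all genes were. At an unadjusted p under 0.05 by edgeR there was 1 in WT-res and 0 in ΔRS-res, against 5615 and 5390 of 26686 genes. Within the 6 pairs of libraries with the same line and number, the median member ranged from -2.19 in ΔRS-res replicate 3 to -1.51 in WT-res replicate 1. In the same pairs the median protein-coding gene ranged from 0.09 to 0.14. Altogether 39 members were lower in the cytoplasm in 6 of 6 pairs, and for 33 members every cytoplasmic library lay below every whole-cell library, which held for 21% of all genes. Without WT-res whole-cell replicate 3 these were 39 members in 5 of 5 pairs and 35 members, against 22% of all genes. The 35 members with a mean of at least 100 counts included 30 that were lower (median -2.25), and the 13 below that mean included 9 (median -1.36). Across the 48 members the ratio and transcript length had a Spearman's rho of -0.16 (-0.06 across all protein-coding genes). With mean whole-cell CPM, which is also the level the ratio divides by, rho was -0.64 over the members and 0.17 over all protein-coding genes. These are descriptions only, since genes within libraries share depth and scaling.

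**Figure D1:**
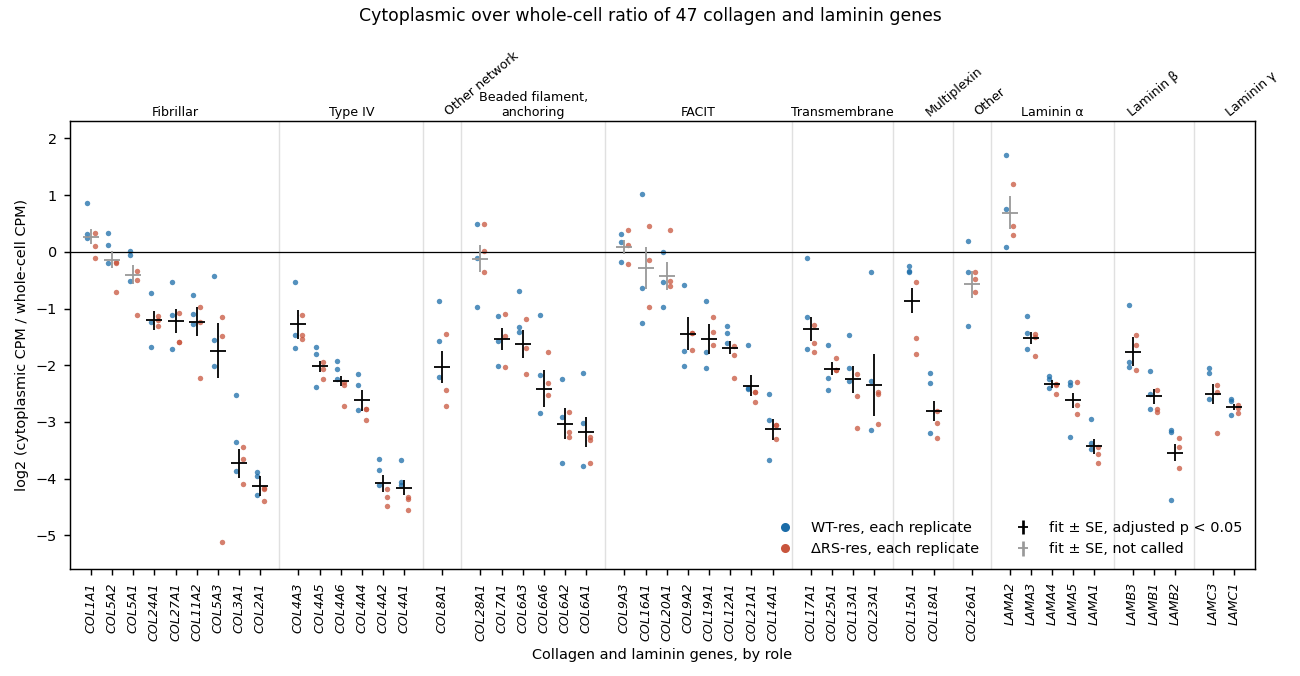
Log2 ratio of cytoplasmic to whole-cell CPM for 47 of the 48 members, grouped by role on the horizontal axis. Dots are single line and replicate pairs (WT-res blue, ΔRS-res red) and bars the fitted mean of both lines ± SE, black where the adjusted p was under 0.05. The 38 black bars are all below 0, while COL1A1, COL9A3 and LAMA2 have fits above 0 in grey.

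The basement membrane collagens were lower throughout. All 6 type IV chains were called lower, with a median log2 fold change of -2.45. COL4A1, whose chain joins COL4A2 in the common heterotrimer, had 126, 111 and 98.2 CPM in WT-res and 142, 139 and 153 CPM in ΔRS-res whole-cell libraries. In the cytoplasm it had 9.87, 6.62 and 5.69 CPM in WT-res and 7.07, 5.92 and 7.48 CPM in ΔRS-res. The fractions were separated by a wide gap, and the fitted difference was -4.16 ± 0.136 (SE, adjusted p = 2.22e-10, n = 6 against 6 in edgeR's fit), the lowest of all members. COL4A2 ran from 89.4 to 157 CPM in whole-cell and from 5.13 to 9.3 CPM in cytoplasmic libraries, a difference of -4.08 ± 0.152. These 2 genes lie head to head on chromosome 13 (COL4A1 at 110148963 to 110307157, minus strand; COL4A2 at 110305812 to 110513209, plus strand) and overlap at their starts, and whether counting used the strand is not given in the sources used here. The pair COL4A5 and COL4A6 on chromosome X, of collecting duct and other special basement membranes, differed by -2.02 ± 0.0913 and -2.28 ± 0.0838. COL4A3 and COL4A4 on chromosome 2, whose chains occur in the glomerulus, differed by -1.28 ± 0.253 and -2.62 ± 0.183.

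Of the laminin chains 10 of 11 were lower (median -2.51), by amounts that varied widely, and within WT-res 9 were. LAMC1 (chromosome 1, 183023420 to 183145592, plus strand), the γ chain of most laminins, had 283, 278 and 297 CPM in WT-res and 306, 303 and 333 CPM in ΔRS-res whole-cell libraries. In the cytoplasm LAMC1 had 46.9, 44.8 and 40.2 CPM in WT-res and 47.1, 45.2 and 46.3 CPM in ΔRS-res. Its fitted difference of -2.73 ± 0.053 had the smallest SE of any member, and each pair of libraries lay between -2.88 and -2.59. LAMB1 (chromosome 7, 107923799 to 108003213, minus strand), which overlaps DLD on the opposite strand, differed by -2.55 ± 0.134, LAMB2 by -3.54 ± 0.153 and LAMB3 by -1.76 ± 0.253. Among the α chains, LAMA1 differed by -3.43 ± 0.138, LAMA5, which overlaps ADRM1 on the opposite strand, by -2.62 ± 0.136, LAMA4 by -2.33 ± 0.0716 and LAMA3 by -1.52 ± 0.0995. LAMA2, the α chain of muscle laminin, was not called (0.69 ± 0.289, adjusted p = 0.0611), had only 33.4 counts on average, and was called higher with the pellet block (0.73, adjusted p = 0.0249).

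Fibrillar collagens showed the widest range. COL2A1 (chromosome 12, 47972967 to 48004554, minus strand) had 114, 106 and 77.8 CPM in WT-res and 102, 95.9 and 109 CPM in ΔRS-res whole-cell libraries. In the cytoplasm COL2A1 had 7.76, 6.78 and 3.99 CPM in WT-res and 5.59, 4.52 and 6.03 CPM in ΔRS-res. Its difference was -4.13 ± 0.168, next to COL4A1 in size. COL3A1 was weakly expressed, with 47 to 139 counts in whole-cell and 4 to 12 in cytoplasmic libraries, and differed by -3.73 ± 0.26. COL11A2, COL24A1 and COL27A1, minor fibrillar chains, differed by -1.23 ± 0.25, -1.21 ± 0.172 and -1.22 ± 0.204, and COL5A3 by -1.74 ± 0.485.

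COL1A1, COL5A1 and COL5A2, which encode fibrillar procollagen chains with signal peptides as well, were not called; they were singled out after their values were seen. COL1A1 (chromosome 17, 50184101 to 50201632, minus strand) had 5.56, 4.76 and 2.98 CPM in WT-res and 4.56, 3.72 and 3.5 CPM in ΔRS-res whole-cell libraries. In the cytoplasm COL1A1 had 6.64, 5.88 and 5.47 CPM in WT-res and 4.26, 4.01 and 4.45 CPM in ΔRS-res. The fractions overlapped, and the fitted difference was 0.27 ± 0.14 (adjusted p = 0.12), against 0.30 (adjusted p = 0.0333) with the pellet block. COL5A2 ran from 1.74 to 2.91 CPM in whole-cell and from 1.69 to 3.17 CPM in cytoplasmic libraries (-0.14 ± 0.147, adjusted p = 0.445, and -0.13 with adjusted p = 0.331 under the block). COL5A1 ran from 9.24 to 15.6 CPM and from 6.75 to 14.6 CPM (-0.40 ± 0.169, adjusted p = 0.062), and was called lower with the block (-0.42, adjusted p = 0.00897). Of COL1A1's counts, 87.4% to 94.7% of whole-cell and 90.4% to 95.1% of cytoplasmic ones fell on the canonical transcript, and at least 97.9% of those of COL5A1 did so in each library. The coding starts of COL5A1 and COL5A2, and the repeat of COL1A1 beside that of COL2A1, are printed above.

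**Figure D2:**
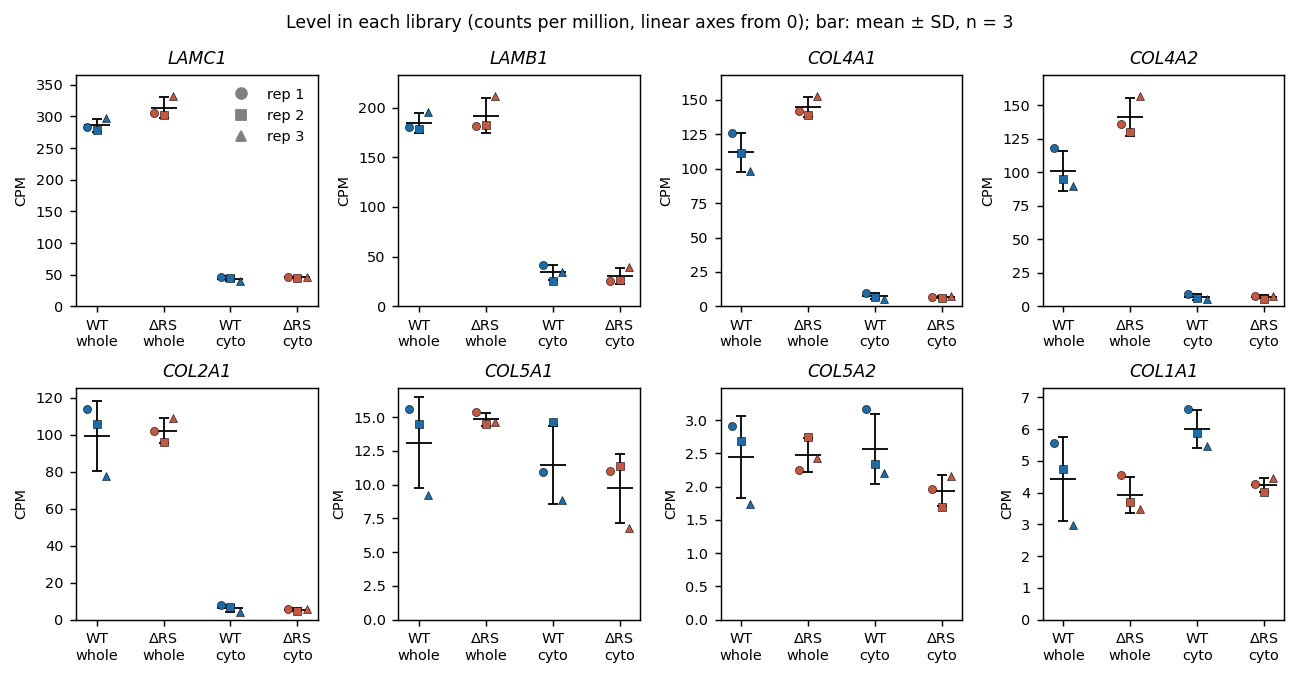
Level in CPM of 8 members in each library, on linear axes that start at 0. Symbols mark the replicate, blue is WT-res and red ΔRS-res, and bars give the mean ± SD (n = 3). LAMC1, LAMB1, COL4A1, COL4A2 and COL2A1 show cytoplasmic libraries far below whole-cell libraries, whereas COL5A1, COL5A2 and COL1A1 overlap.

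The other collagen groups lay between these. Of 6 beaded-filament and anchoring collagens 5 were lower (median -2.02). COL6A1 and COL6A2, neighbours on chromosome 21 and chains of the microfibrillar type VI, differed by -3.17 ± 0.264 and -3.03 ± 0.269. COL7A1, the anchoring fibril of skin, differed by -1.54 ± 0.194. COL6A6 and COL6A3, which passed the minimum on whole-cell RNA alone, differed by -2.41 ± 0.323 and -1.62 ± 0.25 at means of 13 and 12 counts. COL18A1, beside the COL6 genes on chromosome 21 and a heparan sulphate proteoglycan of basement membranes, differed by -2.80 ± 0.176, and its relative COL15A1 by -0.86 ± 0.214. Of 8 fibril-associated collagens 5 were lower, led by COL14A1 at -3.13 ± 0.19 and COL21A1 at -2.36 ± 0.189. The 4 transmembrane collagens, which have no cleaved signal peptide, were all lower (median -2.16). COL25A1 had 26.2 to 37.1 CPM in whole-cell and 5.93 to 8.4 CPM in cytoplasmic libraries, a difference of -2.06 ± 0.113, and COL13A1, COL17A1 and COL23A1 differed by -2.25 ± 0.231, -1.36 ± 0.217 and -2.35 ± 0.552. Besides COL1A1, COL5A1, COL5A2 and LAMA2, the members not called were COL9A3, COL16A1, COL20A1, COL26A1 and COL28A1. Their fits lay between -0.57 and 0.09, and with the pellet block COL26A1 was lower (-0.52, adjusted p = 0.0331). Among these, COL9A3 (0.09 ± 0.127) had 88% of its whole-cell counts on transcripts without a coding annotation, and its difference was -0.92 when protein-coding transcripts alone were summed.

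The share of a gene's counts on its canonical transcript also differed between fractions. For 10 of 35 members with a mean of at least 100 counts, every cytoplasmic library had a lower canonical share than every whole-cell library, which was so for 4.69% of 12684 protein-coding genes of that depth. For 1 member, COL25A1, it was higher in every cytoplasmic library (22.5% to 32.7%, against 13.2% to 17.6% in whole-cell libraries), as for 17.3% of these genes. In COL4A1 the canonical share was 80.7% to 88% in whole-cell and 39% to 62.8% in cytoplasmic libraries, and in COL4A2 it was 77.4% to 86% and 31.4% to 63.4%. The canonical transcript of COL4A1 had a log2 ratio of -4.81, and its other transcripts together -2.54. LAMB1 went from 54.8% to 61.3% down to 16% to 49.7%, whereas LAMC1 stayed at 97.9% to 98.4% and 98.2% to 98.7%. These shares are RSEM's estimates from reads that several transcripts share, and the transcripts without a coding annotation made up 9.63% of COL4A1's whole-cell and 27.8% of its cytoplasmic counts on average.

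Genes for proteins that handle, bind or sit beside these chains were mostly lower in the cytoplasm too. All 17 ER enzymes that modify or fold collagen were lower in the cytoplasm (median -1.86), with the largest changes in PLOD3 (a lysyl hydroxylase, -2.91 ± 0.0911), P3H1 (a prolyl 3-hydroxylase, -2.69 ± 0.0763) and P4HA2 (a prolyl 4-hydroxylase subunit, -2.67 ± 0.0718). All 16 receptors were lower (median -1.92), led by DAG1, the dystroglycan that binds laminin (-3.15 ± 0.0687), ITGA2 (-2.58 ± 0.0887) and ITGA6 (-2.30 ± 0.0784). Of 17 basement membrane and matrix partners 13 were lower (median -2.51), with the largest in TNC (tenascin C, -3.52 ± 0.111), FN1 (fibronectin, -3.41 ± 0.106) and FBN2 (fibrillin 2, -3.25 ± 0.067). Of 12 enzymes of extracellular processing and cross-linking measured 11 were lower (median -1.51), led by ADAMTS2, a procollagen N-proteinase (-2.33 ± 0.343), LOXL2 (-2.24 ± 0.132) and PCOLCE2 (-1.70 ± 0.117). Of all genes tested 31.3% were lower. None in these 4 lists was higher at an adjusted p under 0.05 (23.7% of all genes were) or, by the same edgeR test, at an unadjusted p under 0.05.

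In the other lists members moved both ways. Of 6 genes of procollagen export, MIA3 and MIA2, which encode the membrane-spanning TANGO1 family, were lower (-1.95 ± 0.106 and -1.08 ± 0.109). SEC24D, SEC23A and KLHL12, which encode cytosolic coat proteins and a ubiquitin ligase adaptor, were higher (0.36 ± 0.053, 0.35 ± 0.0425 and 0.27 ± 0.0508). The remaining gene, TRAPPC2, was not called (0.01 ± 0.0495). Of 18 genes of signal recognition and translocation at the ER, 9 were lower and 7 higher (31.3% and 23.7% of all genes). The lower ones with the largest change were SEC61A1, the channel of the translocon (-2.27 ± 0.132), SEC63 (-1.92 ± 0.0688) and SRPRB, a membrane-anchored receptor subunit (-1.76 ± 0.133). The 6 protein subunits of the signal recognition particle, which are cytosolic, were all higher (0.34 to 0.56), as was SEC61G, a membrane subunit of the translocon (0.34 ± 0.0978). The membrane proteins SEC61B (0.24 ± 0.153) and SEC62 (-0.05 ± 0.0833) were not called.

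**Figure D3:**
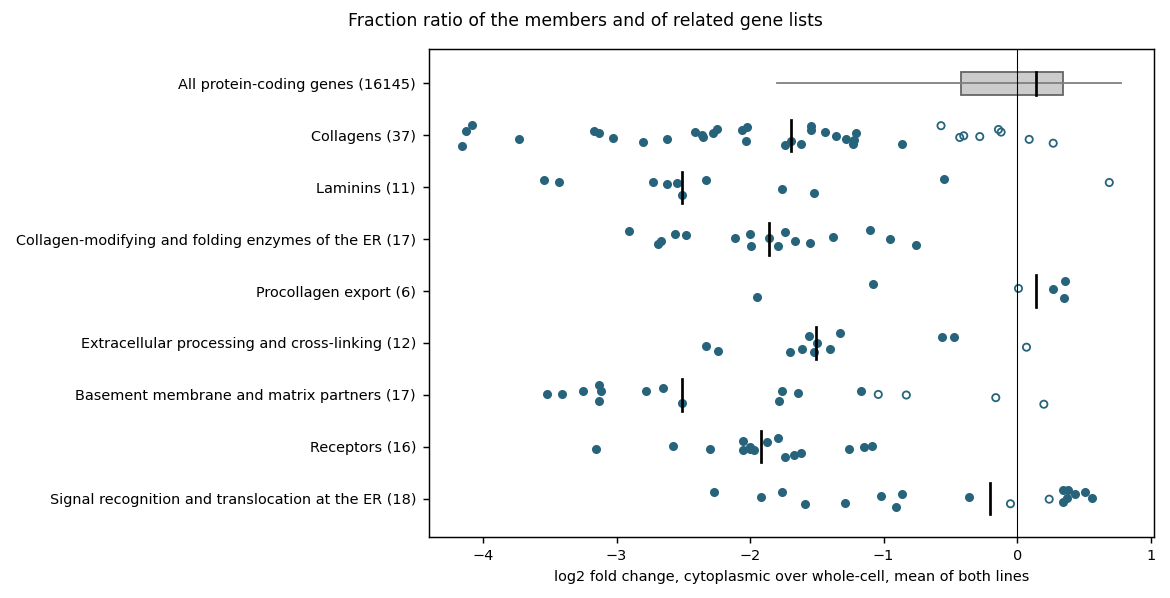
Log2 fold change between fractions, as the mean of both lines, for collagens, laminins and 6 related gene lists (numbers measured in brackets). Each dot is a gene, filled where the adjusted p was under 0.05, and black bars are medians. The grey box spans the 25th to 75th percentile of all protein-coding genes (-0.42 to 0.35) and its line the 5th to 95th (-1.80 to 0.78). The collagen median of -1.69 and the laminin median of -2.51 lie left of the box.

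Whether the fraction ratio of a member differed between the lines was tested as the interaction of line and fraction. edgeR called none of the 48 (0.00375% of all genes were called), and DESeq2 called 0. By edgeR 2 members had an unadjusted p under 0.05, as did 1472 of 26686 genes. The median interaction was -0.28 on the log2 scale, with 40 members negative, towards a lower ratio in ΔRS-res. Of all genes 14033 of 26686 were negative, and of protein-coding genes 8869 of 16145, each with a median of -0.02. The members' median was -0.05 without WT-res cytoplasmic replicate 1, in which the members took the largest share of any cytoplasmic library (0.0242%). It was -0.46 with the 10 libraries the study used and -0.30 without WT-res whole-cell replicate 3 as labelled.

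In whole-cell RNA the number of members that differed between the lines depended on the block and on the library set apart above. Without the block, edgeR called no member, and no gene at all, at an adjusted p under 0.05 (0% of 26793). At an unadjusted p under 0.05 by that test 5 members were higher, where 1071 of 26793 genes were higher and 2289 lower. DESeq2's Wald test called 3 higher in ΔRS-res (COL27A1, COL4A2 and COL6A1), and its share of all genes is not given here. The median member differed by 0.08 in log2. Whole-cell libraries with the same number departed together from the means of their groups (Pearson's r 0.50, 0.50 and 0.66 over 14938 genes). These values depend on each other, because deviations within a group balance out. In both lines replicate 3 lay furthest from the others of its group, and r was not computed without the library labelled WT-res replicate 3. With a block for the number 5 members were higher in ΔRS-res and 0 lower, where 2.78% and 5.19% of all genes were. These were COL6A1 (0.79 ± 0.0693), COL27A1 (0.53 ± 0.0946), COL14A1 (0.37 ± 0.0753), LAMB2 (0.32 ± 0.0583) and LAMA5 (0.30 ± 0.0544), with adjusted p between 0.0226 and 0.0416. COL6A1 had 23, 18.6 and 34.5 CPM in WT-res and 38.1, 37.3 and 55.7 CPM in ΔRS-res. Replicate 3 was the highest of each line, and without the one labelled WT-res the groups were further apart (1.05 ± 0.194, adjusted p = 0.0458). It was then the 1 member called without the block, where 0.886% of all genes were higher and 1.18% lower. By the study's threshold (unadjusted p under 0.05 and a log2 fold change above 0.5 in size) COL6A1 and COL27A1 were higher and none lower in the 6 libraries, against 1.18% and 5.16% of all genes. The study set this threshold on transcripts tested with DESeq2, whereas throughout this report it was set on gene sums tested with edgeR. With the block and without that library, 8 members were higher and 9 lower, against 7.41% and 9.2% of all genes. The lower ones included COL4A3 (-0.75 ± 0.075), COL4A4 (-0.65 ± 0.0624), COL12A1 (-0.54 ± 0.0804) and LAMA1 (-0.28 ± 0.0399), and the higher ones COL4A1 (0.23 ± 0.0472) and COL4A2 (0.31 ± 0.0601).

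In the cytoplasm the study kept 4 libraries, WT-res replicates 1 and 3 and ΔRS-res replicates 1 and 2. In them 7 members were lower in ΔRS-res (14.6%, against 11.4% of 25814 genes) and 0 were higher (10.7% of all genes). At an unadjusted p under 0.05 by edgeR 1 member was higher, as were 4492 of 25814 genes, and DESeq2 called 1 higher. The share that was lower is close to that of all genes. The 7 were COL4A3 (-1.25 ± 0.182, adjusted p = 0.00636), COL4A4 (-1.09 ± 0.229, adjusted p = 0.0205), COL21A1 (-1.0 ± 0.21, adjusted p = 0.0207), COL12A1 (-0.79 ± 0.152, adjusted p = 0.0155), LAMA1 (-0.63 ± 0.152, adjusted p = 0.0317), COL1A1 (-0.53 ± 0.115, adjusted p = 0.0237) and LAMB1 (-0.53 ± 0.0941, adjusted p = 0.012). By the study's threshold 12 members were lower and 0 higher, against 7.86% and 5.21% of all genes. LAMB1 was the member with the highest level per length, and the next 4 were not called, with COL4A1 at -0.23 ± 0.249, COL4A2 at -0.09 ± 0.276, LAMC1 at 0.10 ± 0.0804 and COL2A1 at -0.18 ± 0.298.

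These calls rested on which cytoplasmic libraries entered. COL4A3 had 4.85 and 3.6 CPM in the kept WT-res libraries and 1.93 and 1.57 CPM in those of ΔRS-res, whereas the libraries set aside had 2.29 CPM (WT-res replicate 2) and 3.2 CPM (ΔRS-res replicate 3), so that all 6 overlapped. LAMA1 had 5.33 and 4.03 CPM against 2.83 and 3.1 CPM, and both libraries set aside had 3.84 CPM. LAMB1 had 41.7 and 34.6 CPM against 25.5 and 26.6 CPM, with 26 and 39.3 CPM in those set aside. COL21A1 overlapped too, with 0.692 CPM in WT-res replicate 2 and 0.729 CPM in ΔRS-res replicate 3. COL12A1 stayed apart with all 6, at 2.28, 1.9 and 2.08 CPM in WT-res and 1.38, 1.12 and 1.14 CPM in ΔRS-res. So did COL1A1 and, narrowly, COL4A4, the latter at 4.76, 2.78 and 2.98 CPM against 1.88, 1.67 and 2.73 CPM. Members that were not called, among them LAMC3 and COL4A6, stayed apart as well, and the share of all genes that did so is not given here. With all 6 libraries edgeR called no member in either direction (0.948% of 25949 genes were lower and 0.578% higher). At an unadjusted p under 0.05 by that test 11 members were lower, as were 1469 of 25949 genes. DESeq2's Wald test called 4 lower, among them COL12A1, COL1A1 and LAMC3, and its share of all genes is not given here. The study's threshold gave 8 lower and 0 higher, against 3.49% and 2.18% of all genes. COL12A1 had the lowest adjusted p of the members by edgeR (-0.78 ± 0.162, adjusted p = 0.0713), and COL1A1 differed by -0.49 ± 0.119 (adjusted p = 0.125). Without WT-res cytoplasmic replicate 1 the comparison of 4 libraries gave 6 members higher (11.1% of all genes were), and without WT-res replicate 3 it gave 16 lower (12% of all genes). Leaving out ΔRS-res replicate 1 or 2 gave 3 or 2 lower, against 4.55% and 4.72% of all genes. The library left alone in its group is then assumed to vary like those of the other line.

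Position went along with some of these values. COL4A3 and COL4A4 are adjacent on chromosome 2 (227002714 to 227314792), and the 29 other protein-coding genes with at least 100 counts within 5 Mb of them had a median line difference of -0.46 in the 4 cytoplasmic libraries, -0.49 in all 6 and -0.37 in whole-cell RNA. Around COL3A1 and COL5A2, also on chromosome 2, the 24 neighbours had medians of -0.59, -0.61 and -0.62. COL3A1 itself had -0.97, -1.24 and -0.63, and COL5A2 had -0.52, -0.39 and 0.01 (-0.19 in whole-cell RNA without WT-res replicate 3 as labelled). For COL6A3, on the same chromosome, the medians were -0.50, -0.46 and -0.28 over 53 neighbours, and its own values were -0.84, -1.01 and -0.39. None of these 3 members was called in these fits. The neighbours of COL12A1 had -0.10, -0.05 and -0.23, and those of COL1A1, COL21A1, LAMA1 and LAMB1 lay between -0.03 and 0.07 in the 4 libraries. The part of the neighbourhood in the members' values was not tested.

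**Figure D4:**
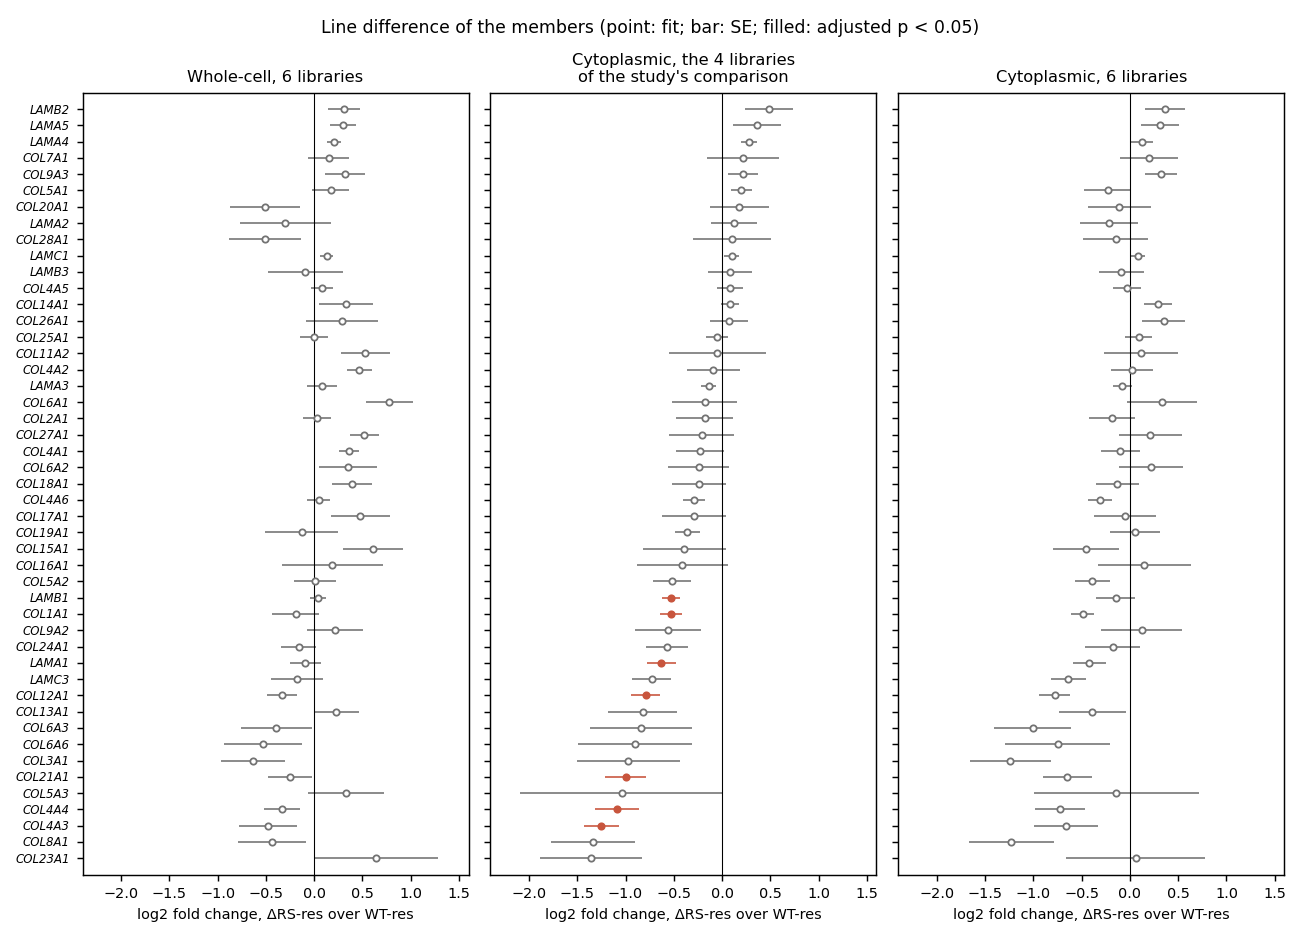
Log2 fold change of ΔRS-res over WT-res for 47 members, with its SE as a bar, in whole-cell RNA, in the 4 cytoplasmic libraries of the study's comparison and in all 6. Filled red points have an adjusted p under 0.05. The 7 called members appear in the middle panel only, and COL4A3 moves from -1.25 to -0.66 when all 6 libraries are used.

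Of the related lists, matrix partners held the largest line difference. SPARC, a collagen-binding glycoprotein, had 1.59, 1.02 and 1.26 CPM in WT-res and 0.0571, 0.039 and 0.125 CPM in ΔRS-res cytoplasmic libraries. In whole-cell RNA it had 6.77 and 6.11 CPM in WT-res replicates 1 and 2, 0.444 CPM in the library labelled replicate 3, and 0.164 to 0.33 CPM in ΔRS-res, a difference that was not called with the library labelled replicate 3 (-4.15 ± 0.928, adjusted p = 0.213) and was called without it (-4.68 ± 0.244, adjusted p = 0.000296). It was lower in ΔRS-res in the 4 (-4.85 ± 0.294, adjusted p = 0.000747) and in all 6 cytoplasmic libraries (-4.07 ± 0.388, adjusted p = 0.00302). In the 4 libraries, where 11.4% of all genes were lower and 10.7% higher, 6 of 16 partners measured were lower, the next in size being FBLN1 (-0.73) and FN1 (-0.55). ER enzymes had 2 lower and 1 higher of 17, processing enzymes 4 lower and 1 higher of 12, export genes 2 lower and 0 higher of 6, receptors 1 lower and 1 higher of 16, and translocation genes 3 lower and 3 higher of 18.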

How the data were processed

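RNA-seq was made from whole-cell and cytoplasmic RNA of WT-res and ΔRS-res lines (12 libraries, 3 per group) with ribosomal RNA depletion. The expected counts per transcript are the values that the authors deposited, made with the nf-core/rnaseq pipeline (Trim Galore, STAR and RSEM on GRCh38), and they are not scaled between libraries. Versions of those tools are not given in the sources used here. Every column was joined to a sample by its description.

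Counts were summed per gene, rounded and annotated with GENCODE 44 (same build), which held 99.83% of the genes. Genes with a mean above 2 in the libraries of a fit were tested with edgeR 4.0.16 (R 4.3.3; TMM scaling, quasi-likelihood test, Benjamini-Hochberg adjustment over all genes) and called at an adjusted p under 0.05. The test was tried on simulated data. CPM were scaled by effective library size from the fit of 12 libraries, and level per length divides by the count-weighted transcript length. SE is the fold change over the square root of F.

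Fractions and the interaction were fitted with all 12 libraries, and lines within each fraction, with alternatives in DESeq2 1.42.0, scaling, filters, blocks and left-out libraries. The fits that combined leaving out WT-res whole-cell replicate 3 with the study's choice of libraries or with the block were added after the data were seen. Fractions of 1 line that have the same number share a pellet name in the study's sample sheet. Correlations of their deviations over genes were -0.17, 0.56 and 0.44 for the WT-res pellets and 0.45, 0.42 and 0.78 for those of ΔRS-res. Libraries of a group differed by more than counting noise.

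Named with values were the called members (the 6 highest and 6 lowest where over 10 were called), the 10 highest by level per length, and the COL4 pairs and COL6A1, COL6A2 and COL18A1, and of each related list the 3 called genes with the largest change; other names were chosen after their values were seen. Members, roles and lists were chosen with earlier results of these data known. A member that the counts include and some sequences are not reported here.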

Additional observations from a re-analysis of the deposited data

How the results depend on the processing

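The fraction result kept its direction. Under 22 alternatives 39 to 42 members were lower, 31 to 36 within WT-res and 36 to 41 within ΔRS-res, and leaving out each library gave 39 to 41 (median -1.98 to -1.84), 31 to 36 (-1.85 to -1.66) and 36 to 40 (-2.08 to -1.98). With protein-coding transcripts alone the medians were -2.27, -2.26 and -2.29. Members called higher, 0 in the report, numbered 1 with DESeq2's size factors or Wald test, 2 with the replicate block by cell pellet (1 within WT-res), 1 with the study's libraries less the one labelled WT-res whole-cell replicate 3 (also 1 within ΔRS-res) and 0 to 1 when a library was left out (0 to 1 within WT-res, 0 within ΔRS-res). The fits of COL16A1 (-0.53 to 0.02 with a library left out, 0.02 without ΔRS-res whole-cell replicate 2), COL28A1 (-0.24 to 0.02, 0.02 without whole-cell replicate 3 of WT-res as labelled, 0.00 with the study's libraries as well) and COL9A3 (-0.03 with TMM on protein-coding genes, -0.92 on their transcripts) changed sign, and none of these genes was called in the report. The interaction had no called member under any alternative, and its median ran from -0.39 to -0.05 when a library was left out.

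For lines in whole-cell RNA, members called higher were 3 with DESeq2's Wald test, 2 by the study's threshold, 5 with the replicate block (median 0.08) and 0 to 1 with a library left out (median -0.03 to 0.12). With the block and without the library labelled WT-res replicate 3, 8 were higher and 9 lower, but the line difference then rests on replicates 1 and 2. In the 4 cytoplasmic libraries 2 to 16 were lower and 0 to 6 higher with a library left out (median -0.59 to -0.05), 15 lower and 3 higher without a filter, 12 lower by the study's threshold, 1 lower in the joint fit with whole-cell libraries, and 1 higher with DESeq2's size factors or Wald test, TMM on protein-coding genes, filterByExpr or protein-coding transcripts. With all 6, DESeq2's Wald test called 4 lower and the study's threshold 8, a library left out gave 0, and LAMB1 ran from -0.38 to 0.00, the latter without WT-res replicate 1. The cause of these changes was not tested. No paired analysis was possible for the 4 libraries because the lines share only number 1 among them. In all 6 cytoplasmic libraries the number did not pair the samples (r -0.36, 0.59 and 0.46), and its block left 0 called. The minimum of 10 counts decides how many members are measured, 52 at a minimum of 2 and 35 at 100, and at these depths the weaker members carry SEs of up to 0.552 between fractions.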
